A study of Mus musculus with 13 samples.

Results

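Expression of 979 chromosome 4 genes was compared between 2 kinds of mouse thymic lymphoma and WT thymus. They were selected on their position and on their measured level, as chromosome 4 genes whose normalized count reached 10 in 3 or more of the 13 libraries, without ribosomal protein, collagen and respiratory chain genes (names beginning with Rpl, Rps, Col, Nduf or Uqcr) and without Cdkn2a, Cdkn2b, Cdkn2c, Lck, Jun, Jak1, Runx3, Tox and Tal1. Of 43629 genes in the table, 15872 reached that level, 1011 of them on chromosome 4, and 32 of these were left out by name. RNA of 13 samples was sequenced. There were 5 lymphomas of Atm-/- mice on the 129S6/SvEv strain, which lack the ATM kinase that senses DNA double-strand breaks, and 5 lymphomas of Rag2c/c p53-/- mice on a mixed C57BL/6 and 129S6/SvEv background, which lack p53 and express a RAG2 protein without its C terminus. The 3 WT thymuses were of the C57BL/6 strain and had been re-used from another series, and WT source names read thymic lymphoma whereas their tissue label and genotype describe normal thymus. Both mutations of the Rag2c/c p53-/- mice were present in all 5 of these lymphomas, and no sample carried either mutation alone. Genotype, strain and series go together in this design and cannot be told apart. Nothing in the labels says whether tumors were of separate litters, and p-values measure the spread between these samples.

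Chromosome 4 of the mouse carries genes of the cell cycle, DNA repair and metabolism, a group of tumor necrosis factor (TNF) receptor genes near its distal end, and lymphocyte regulators such as Bach2 and Pax5. Gain or loss of a whole chromosome, a common change in mouse T cell lymphomas, alters the number of templates for all of its genes together, and the transcript levels of many of them follow in proportion. DNA copy number was not measured in these libraries, so only the dosage of transcripts is described. In bulk samples, fewer cells of a type and less RNA per cell cannot be told apart.

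The 979 genes started between positions 3549041 and the distal end of the chromosome (GRCm38), the last one ending at 156255338. They comprised 811 protein-coding genes, 73 processed pseudogenes, 24 antisense genes, 23 lincRNAs and other classes, and 454 of them overlapped another gene of the table. The mean over the libraries was at least 100 for 663 of them. Members just inside the threshold, 46 genes at 10 or more in exactly 3 libraries, had a median mean of 6.88, and the 38 chromosome 4 genes just outside, at that level in exactly 2 libraries, had a median mean of 4.62. Passing depended on a single group for few genes, since 5 members reached 10 only in Atm-/- lymphomas, 16 only in Rag2c/c p53-/- lymphomas and 6 only in WT thymuses. Of the genes named below, Gm12666 is among the 5, and Zbtb8b and Rab3b are among the 16. Normalized counts summed to 19788898 to 21591289 per library. Rag2c/c p53-/- lymphoma 2 and WT thymus 2 held no value of 1 or 2, the lowest value above 0 being 3. Their depth itself cannot be read from these rounded values. The thymocyte marker Cd3e lay between 7309 and 18552 in every library, but other thymocyte markers differed between the groups. Rag1 was at 5620 to 23493 in Rag2c/c p53-/- lymphomas, 2383 to 7116 in Atm-/- lymphomas and 48182 to 70834 in WT thymuses. Of 8 thymocyte markers, Rag1 was called lower in both lymphoma groups and Cd8a in Atm-/- lymphomas, by the rule given below, and 0 were called higher.

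In all 5 Rag2c/c p53-/- lymphomas the chromosome 4 genes as a whole stood above WT thymus, and in Atm-/- lymphomas they lay close to it. The measure was the median over the 979 genes of the log2 difference from the mean of the WT thymuses, less the same median over all 15872 tested genes, and is called the relative level below. It was 0.55, 0.33, 0.40, 0.37 and 0.36 in Rag2c/c p53-/- lymphomas 1 to 5, with a mean of 0.40 ± 0.09 (SD, n = 5), which is 1.32-fold. In Atm-/- lymphomas 1 to 5 it was 0.02, 0.04, 0.15, 0.04 and 0.04, with a mean of 0.06 ± 0.05 (SD, n = 5), or 1.04-fold. Each WT thymus set against the mean of the other WT thymuses gave between -0.01 and 0.02. No Rag2c/c p53-/- lymphoma overlapped any Atm-/- lymphoma or WT thymus, and the gap between the lymphoma groups, from 0.15 to 0.33, was larger than the SD of either group. No p-value is given for this score, because the genes were chosen with results of these data known.

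The share of all normalized counts that fell on the 979 genes, which needs no reference to WT thymus, was also highest in the Rag2c/c p53-/- lymphomas, and Atm-/- lymphomas and WT thymuses overlapped. It was 8.22%, 6.50%, 7.32%, 6.85% and 7.18% in Rag2c/c p53-/- lymphomas 1 to 5. Atm-/- lymphomas held 5.56% to 5.94% and WT thymuses 5.71% to 5.79%. Of the 979 genes, between 56.5% and 73.0% were above the WT mean in a Rag2c/c p53-/- lymphoma, against 48.5% to 49.8% of all tested genes in the same libraries. In Atm-/- lymphomas 49.9% to 53.7% of the 979 genes were above the WT mean.

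**Figure D1:**
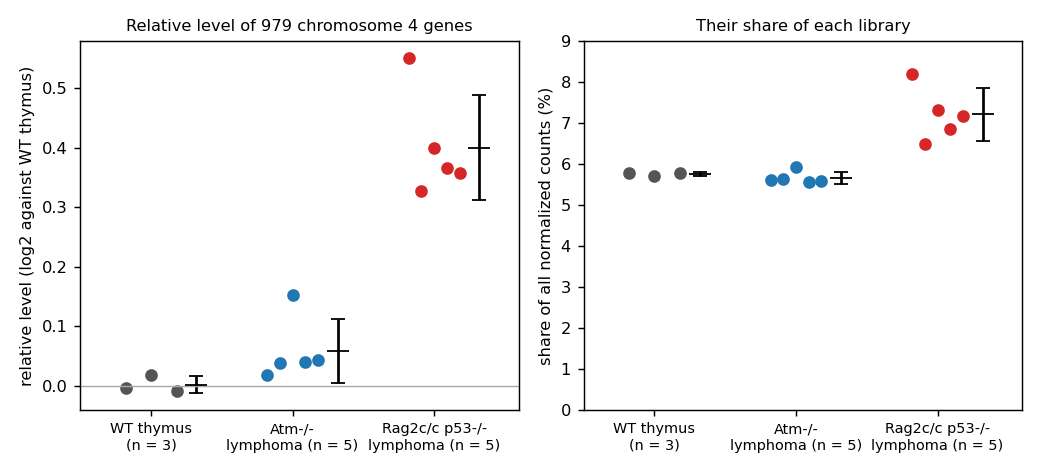
Left, relative level of the 979 chromosome 4 genes (log2 against WT thymus), and right, their share of all normalized counts (%), with one point per library and the mean ± SD as a bar beside the points. The 5 Rag2c/c p53-/- lymphomas lie between 0.33 and 0.55 on the left and between 6.50% and 8.22% on the right, above all other libraries in both plots.

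The relative level was placed beside that of the other autosomes. Among 19 autosomes, chromosome 4 ranked 1, 3, 2, 1 and 2 in Rag2c/c p53-/- lymphomas 1 to 5 and 8, 9, 3, 6 and 6 in Atm-/- lymphomas 1 to 5. Chromosome 15 was the other autosome with a comparable value, at 0.45 ± 0.13 in Rag2c/c p53-/- lymphomas and 0.44 ± 0.18 in Atm-/- lymphomas (SD, n = 5 each). Chromosome 15 was thus high in both lymphoma groups, whereas chromosome 4 was high in 1 of them. All other autosomes had group means between -0.30 and 0.21 in Rag2c/c p53-/- lymphomas.

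**Figure D2:**
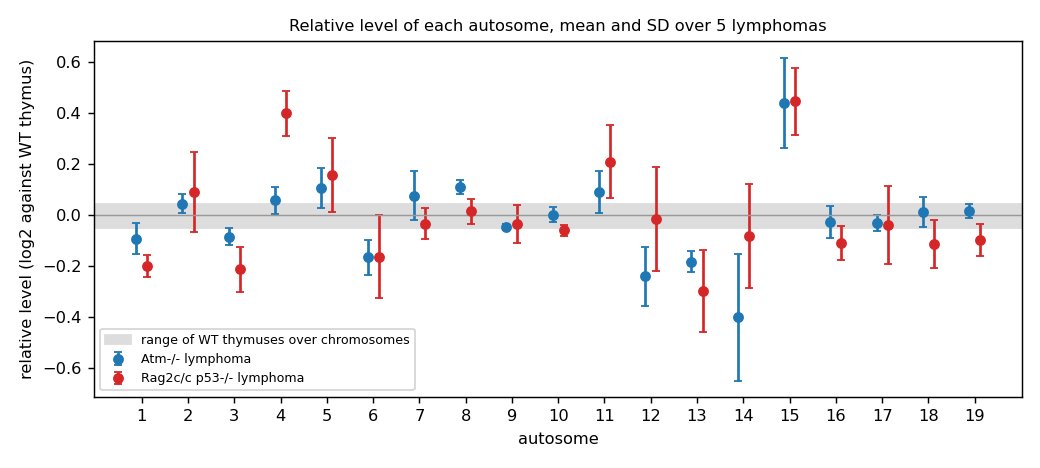
Relative level (log2 against WT thymus) of each of 19 autosomes, as the mean and SD over 5 lymphomas of each genotype, with a grey band for the range of the WT thymuses. On chromosome 4 the Rag2c/c p53-/- mean is 0.40 and the Atm-/- mean 0.06, and on chromosome 15 both means lie near 0.4.

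The lymphoma groups were next compared directly, with the mean of the 5 Atm-/- lymphomas in place of WT thymus. The relative level was then 0.54, 0.28, 0.39, 0.29 and 0.36 in Rag2c/c p53-/- lymphomas 1 to 5, with a mean of 0.37 ± 0.10 (SD, n = 5), or 1.29-fold. Chromosome 4 ranked first among the 19 autosomes by this measure in lymphomas 1, 2 and 3 and 2 in lymphomas 4 and 5. Between 63.0% and 74.8% of the 979 genes were above the Atm-/- mean in each lymphoma, against 48.8% to 51.2% of all tested genes. These values share the Rag2c/c p53-/- libraries with the comparison against WT thymus and are another reading of the same libraries. Direct values of the other autosomes are not given. Read against WT thymus, chromosomes 14 and 12 also differed between the lymphoma groups. For chromosome 14 the Rag2c/c p53-/- mean was -0.08 ± 0.20 and the Atm-/- mean -0.40 ± 0.25 (SD, n = 5 each). For chromosome 12 these means were -0.02 ± 0.20 and -0.24 ± 0.12. On both chromosomes single lymphomas of the groups overlapped, which they did not on chromosome 4. The groups were separate on chromosomes 3 and 8 as well, with the Rag2c/c p53-/- lymphomas lower. On chromosome 3 they lay at -0.36 to -0.14 against -0.13 to -0.05 in Atm-/- lymphomas. On chromosome 8 the ranges were -0.06 to 0.06 and 0.08 to 0.14.

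Along the chromosome, the difference between the lymphoma groups was smaller at the proximal end than over the rest, where it varied in size but its mean stayed above 0. Windows of 50 consecutive genes, moved by 10 genes, gave 93 windows, and the value of a window was the median difference of its genes from the Atm-/- mean, less that of all tested genes. In the first 6 windows, which ran from Tmem68 to Slc35a1 (3549041 to 34687438), the mean of the Rag2c/c p53-/- lymphomas against Atm-/- lymphomas lay between -0.07 and 0.23, and in none of these windows were all 5 lymphomas above 0. In the remaining 87 windows the mean lay between 0.18 and 0.52, with a median of 0.39, and all 5 lymphomas were above 0 in 82 of them. The split after the first 6 windows was chosen after the values had been seen. In bins of 10 Mb the mean was 0.10 ± 0.07 from 0 to 10 Mb (18 genes), with all 5 lymphomas above 0. It was -0.01 ± 0.23 from 10 to 20 Mb (44 genes) and 0.17 ± 0.27 from 20 to 30 Mb (14 genes). In each of these 2 bins 4 of the 5 lymphomas were above 0, and the lowest stood at -0.41 and -0.29. Rag2c/c p53-/- lymphoma 2 was the lowest in windows 2 to 5, at -0.39, -0.37, -0.45 and -0.34, so the low means there lean on that library. The mean was 0.49 ± 0.28 from 30 to 40 Mb (29 genes) and 0.44 ± 0.12 from 40 to 50 Mb (117 genes, SD, n = 5). It was 0.56 ± 0.24 from 50 to 60 Mb and 0.24 ± 0.13 from 60 to 70 Mb, and in the next 3 bins it was 0.27, 0.30 and 0.37, with 4 of the 5 lymphomas above 0 in each. From 100 Mb on, each of the 6 bins had a mean between 0.32 and 0.40, and all 5 lymphomas were above 0 in every one of them. Taken instead as the difference of the 2 group means against WT thymus, a measure added after seeing the data, the first 6 windows lay between -0.31 and 0.20 and the remaining 87 between 0.03 and 0.59, with medians of -0.13 and 0.40.

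The same windows were also read against WT thymus. Their group mean ranged from -0.15 to 0.87 in Rag2c/c p53-/- lymphomas and from -0.31 to 0.50 in Atm-/- lymphomas, and the SD over the 93 windows was 0.25 and 0.21. The SD was 0.11 for the lymphomas against the Atm-/- mean and 0.17 for the difference of the group means against WT thymus. WT thymus windows stayed between -0.12 and 0.12. All 5 Rag2c/c p53-/- lymphomas were above every WT thymus in 68 windows and below every WT thymus in 0. All 5 Atm-/- lymphomas were above every WT thymus in 24 windows and below in 10. All 5 Rag2c/c p53-/- lymphomas were above all 5 Atm-/- lymphomas in 47 of the 93 windows, and the reverse held in 0. Rag2c/c p53-/- lymphoma 1 was above 0 in all 93 windows, the only library of the 13 for which this held.

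**Figure D3:**
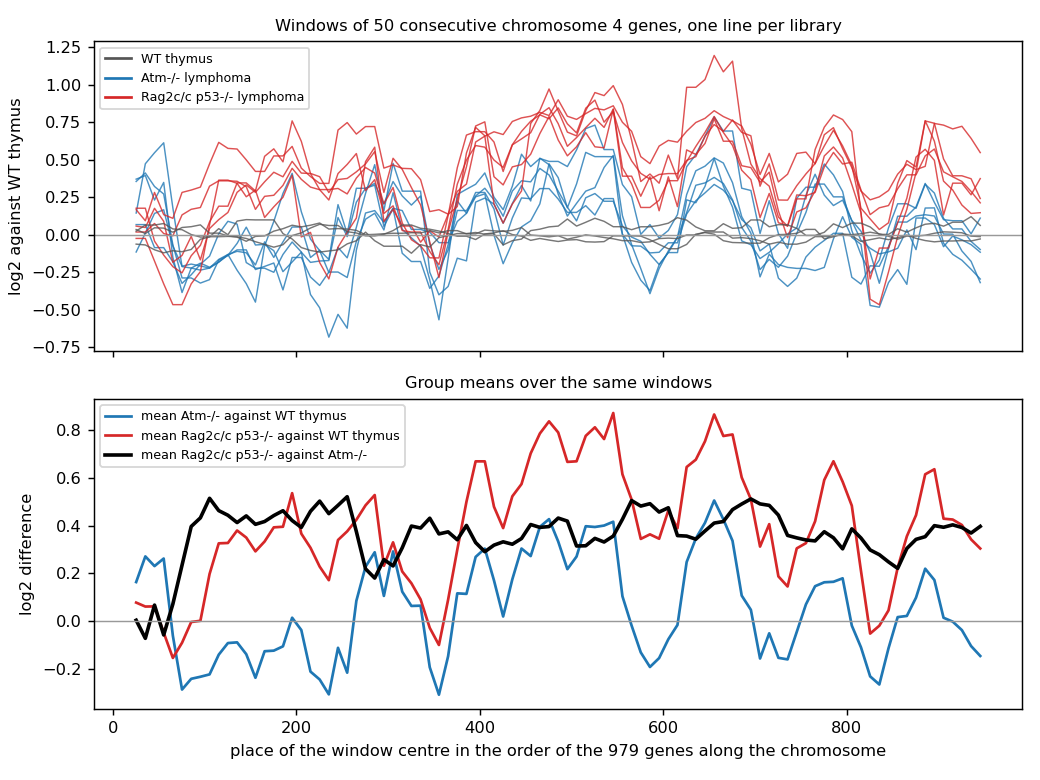
Top, log2 difference from WT thymus in windows of 50 consecutive chromosome 4 genes, less the median of all tested genes, with one line per library. Bottom, group means over the same windows against WT thymus in colour, and in black the mean of the Rag2c/c p53-/- lymphomas measured directly against the Atm-/- mean, which is not the gap between the coloured lines. The horizontal axis is the place of a window in gene order. The black line lies between -0.07 and 0.23 in the first 6 windows and between 0.18 and 0.52 in the others, and the coloured lines span -0.31 to 0.50 (Atm-/-) and -0.15 to 0.87 (Rag2c/c p53-/-).

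The largest shift of any lymphoma was 1.20 in Rag2c/c p53-/- lymphoma 2, in the window from 131768457 to 133591735. Its 5 most abundant genes did not move as a block. Nudc, a dynein-associated protein needed for nuclear movement and cell division, was 6920, 9156, 6169, 8335 and 7258 in Rag2c/c p53-/- lymphomas 1 to 5 and 2711, 3450 and 2589 in WT thymuses, a log2 difference of 1.37 ± 0.17 (SE). Srsf4, a splicing factor, rose by less (0.92 ± 0.15, adjusted p = 0.000632) with no overlap between the groups. Wasf2, which links Rac to actin, differed by 0.04 ± 0.29, and Epb4.1, a membrane skeleton protein, stood lower there (-0.84 ± 0.30, adjusted p = 0.0395). Wdtc1 differed by 0.40 ± 0.15 (adjusted p = 0.0499). These p-values and those below come from limma over all 15872 genes with Benjamini-Hochberg adjustment, on log2(normalized count + 1).

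The shift was seen at low, middle and high expression, and the median of the processed pseudogenes stayed near 0. In Rag2c/c p53-/- lymphomas the relative level, taken against tested genes of the same range, was 0.47 ± 0.12 for the 326 members with the lowest means, 0.39 ± 0.10 for the next 326 and 0.37 ± 0.12 for the 327 with the highest means (SD, n = 5). In Atm-/- lymphomas the corresponding values were 0.29 ± 0.08, 0.03 ± 0.06 and 0.01 ± 0.05. Protein-coding members stood at 0.40 ± 0.11 in Rag2c/c p53-/- lymphomas. The 73 processed pseudogenes, which can share reads with their parent genes elsewhere in the genome, stood at -0.03 ± 0.07 in the same lymphomas and at -0.08 ± 0.06 in Atm-/- lymphomas.

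Individual genes were then tested. A gene was called when its adjusted p was under 0.05, its log2 difference was 1 or more in size, and the mean of either group reached 10. Such calls were made for 273 members in Atm-/- lymphomas (27.9%, against 29.5% of all tested genes), 263 in Rag2c/c p53-/- lymphomas (26.9%, against 23.6%) and 89 between the lymphoma groups (9.09%, against 7.84%). In Rag2c/c p53-/- lymphomas against WT thymus, 186 members (19%) were higher, against 9.77% of all tested genes, and 77 (7.87%) were lower, against 13.9% of all tested genes. In Atm-/- lymphomas against WT thymus, 130 members (13.3%) were higher and 143 (14.6%) lower, beside 12.6% and 17.0% of all tested genes, so that the members were close to the background. Between the lymphoma groups, 20 members (2.04%) were higher in Atm-/- lymphomas, against 3.51% of all tested genes, and 69 (7.05%) were lower, against 4.33%.

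Without the fold threshold, higher calls outnumbered lower calls by a larger margin in Rag2c/c p53-/- lymphomas against WT thymus. Lower calls did so between the lymphoma groups. The shares over all tested genes rose as well, and the cause of the larger margins was not tested. By adjusted p alone, 318 members (32.5%) were higher and 91 (9.30%) lower for Rag2c/c p53-/- lymphomas against WT thymus, beside 17.5% and 19.7% of all tested genes. For Atm-/- lymphomas against WT thymus the members were 228 (23.3%) and 206 (21.0%), beside 21.0% and 23.6%. Between the lymphoma groups, 191 members (19.5%) were lower in Atm-/- than in Rag2c/c p53-/- lymphomas and 25 (2.55%) higher, beside 6.48% and 5.13%. Every Rag2c/c p53-/- lymphoma was above every WT thymus for 334 members (34.1%, against 19.7% of all tested genes) and below for 112 (11.4%, against 24.2%), and for Atm-/- lymphomas these were 250 (25.5%, against 23.4%) and 259 (26.5%, against 27.9%). Between the lymphoma groups there was no overlap for 136 members that were lower in every Atm-/- than in every Rag2c/c p53-/- lymphoma (13.9%, against 4.48% of all tested genes), and for 16 that were higher (1.63%, against 3.85%). The median log2 difference of the members was 0.36 for Rag2c/c p53-/- lymphomas against WT thymus, 0.08 for Atm-/- lymphomas against WT thymus and -0.34 for Atm-/- against Rag2c/c p53-/- lymphomas, and over all tested genes it was -0.02, -0.02 and 0.02. The 3 comparisons share libraries.

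**Figure D4:**
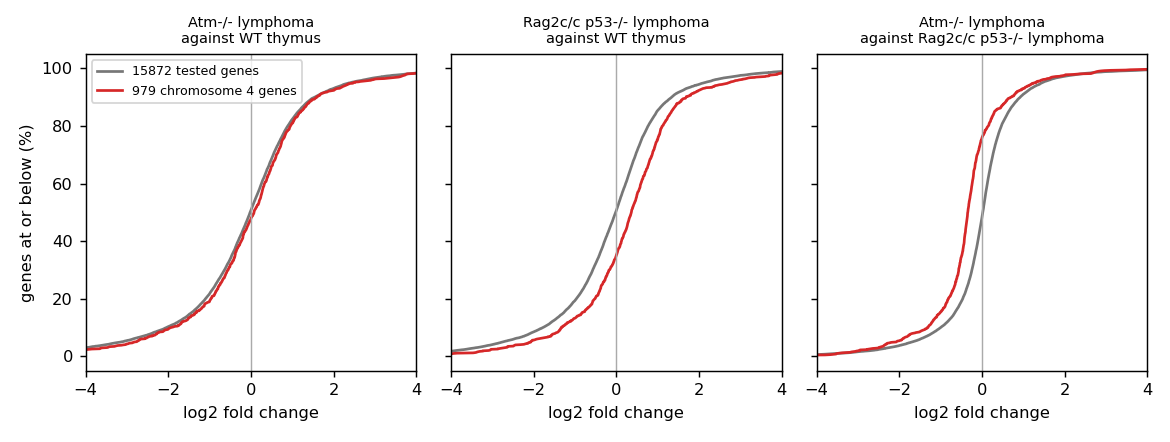
Cumulative distribution of log2 fold changes (horizontal axis, clipped at -4 and 4) for the 979 chromosome 4 genes in red and all 15872 tested genes in grey, with the percentage of genes at or below a value on the vertical axis. The red curve is displaced to the right for Rag2c/c p53-/- lymphomas against WT thymus (median 0.36 against -0.02) and to the left for Atm-/- against Rag2c/c p53-/- lymphomas (median -0.34 against 0.02).

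Some genes of DNA replication and mitosis rose in Rag2c/c p53-/- lymphomas. Of 22 such members, 11 were called higher for Rag2c/c p53-/- lymphomas against WT thymus and 0 lower, beside 9.77% and 13.9% of all tested genes and 19% and 7.87% of the chromosome 4 members, with 18 higher at adjusted p alone, and their median log2 difference was 1.0. In Atm-/- lymphomas 3 were called higher (Cdca8, Rcc1 and Apitd1), beside 12.6% of all tested genes, and the median was 0.72. Cdc20, the activator of the anaphase-promoting complex, was 5275, 5390, 4393, 5928 and 5388 in Rag2c/c p53-/- lymphomas 1 to 5, 4551, 2964, 4682, 4415 and 3833 in Atm-/- lymphomas and 2042, 2277 and 1976 in WT thymuses. Every lymphoma was above every WT thymus, and the log2 differences were 1.33 ± 0.16 and 0.95 ± 0.16 (SE). Cdca8, a subunit of the chromosomal passenger complex, was at 4148 to 5165 in Rag2c/c p53-/- lymphomas and at 1808 to 1943 in WT thymuses (1.38 ± 0.15, adjusted p = 2.79e-05). Orc1, which marks replication origins, was 979, 787, 713, 1018 and 1048 against 341, 312 and 380 in WT thymuses (1.39 ± 0.23, adjusted p = 0.000535). Hmgn2, a nucleosome-binding protein, was the 1 gene of the list called between the lymphoma groups, at 2366 to 3933 in Atm-/- and 6351 to 8757 in Rag2c/c p53-/- lymphomas (-1.30 ± 0.18, adjusted p = 0.000432). All 22 members had a lower estimate in Atm-/- than in Rag2c/c p53-/- lymphomas, with a median of -0.35. That median is close to the -0.34 of all 979 members. Of these, 24.3% had an estimate above 0, beside 51.8% of all tested genes. The Cdca8 call in Atm-/- lymphomas rests on a log2 difference of 1.02, and it fell under the fold threshold without Atm-/- lymphoma 3 (0.97) or 4 (0.97). Dividing-cell markers on other chromosomes also moved, since 4 of 6 were higher at adjusted p alone in Atm-/- lymphomas and 2 of 6 in Rag2c/c p53-/- lymphomas. Their summed level was 30637 to 63021 in Atm-/- lymphomas, 36749 to 50301 in Rag2c/c p53-/- lymphomas and 34944 to 40835 in WT thymuses, and their part in the result was not tested.

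The promoters of these genes were searched for the binding letters of factors that drive cell cycle genes. The letters CCAAT, read by NF-Y, and TTCCCGC, read by E2F factors, were looked for on both strands in the window from 250 bases before to 50 bases after the RefSeq start (GRCm38.p6). A promoter was at hand for 19 of the 22 replication and mitosis members. CCAAT was in 10 of the 19 (52.6%), against 41.1% of 27025 genes with a promoter in the reference, and TTCCCGC in 5 (26.3%), against 5.29%. Among the 656 chromosome 4 members with a promoter the shares were 43.5% and 10.8%. These cover fewer than 80% of the 979 members, so a check over the members as a whole is void. The 4 promoters below belong to members that were higher in all 5 Rag2c/c p53-/- lymphomas than in any WT thymus, and capitals mark the matches, with ATTGG and GCGGGAA being matches on the opposite strand. Cdca8 (chr4:124936868-124937167, minus strand) has 4 matches to CCAAT. Cdc20 (chr4:118437294-118437593, minus strand) has matches 53 and 8 bases before the start, and Orc1 (chr4:108579204-108579503, plus strand) has them 120 and 66 bases before the start. Nudc (chr4:133545978-133546277, minus strand) has CCAAT 79 bases and the E2F letters 19 bases before the start. A match is a description of the sequence and not a binding site.
Cdca8: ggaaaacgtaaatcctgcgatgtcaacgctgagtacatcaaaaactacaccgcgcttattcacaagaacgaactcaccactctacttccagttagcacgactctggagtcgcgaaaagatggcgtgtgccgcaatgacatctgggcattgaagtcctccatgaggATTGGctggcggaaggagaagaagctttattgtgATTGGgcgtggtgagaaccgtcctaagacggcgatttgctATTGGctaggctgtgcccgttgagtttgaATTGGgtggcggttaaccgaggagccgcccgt
Cdc20: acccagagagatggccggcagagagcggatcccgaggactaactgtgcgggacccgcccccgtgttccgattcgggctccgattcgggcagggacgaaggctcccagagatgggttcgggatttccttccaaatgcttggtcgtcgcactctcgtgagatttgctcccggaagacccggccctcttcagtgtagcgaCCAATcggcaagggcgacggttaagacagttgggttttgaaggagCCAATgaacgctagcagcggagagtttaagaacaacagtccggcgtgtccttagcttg
Orc1: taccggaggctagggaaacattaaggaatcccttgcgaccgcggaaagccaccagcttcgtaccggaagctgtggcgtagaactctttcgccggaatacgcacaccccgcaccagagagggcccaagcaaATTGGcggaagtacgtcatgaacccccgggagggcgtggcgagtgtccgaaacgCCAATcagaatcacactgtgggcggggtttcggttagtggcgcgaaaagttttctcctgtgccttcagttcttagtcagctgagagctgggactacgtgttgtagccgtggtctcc
Nudc: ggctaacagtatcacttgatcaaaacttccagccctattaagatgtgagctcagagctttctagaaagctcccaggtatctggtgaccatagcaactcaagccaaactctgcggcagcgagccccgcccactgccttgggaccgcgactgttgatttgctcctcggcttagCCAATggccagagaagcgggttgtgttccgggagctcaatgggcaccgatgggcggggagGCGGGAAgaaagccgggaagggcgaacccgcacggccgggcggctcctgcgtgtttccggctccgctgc

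Of 20 members of DNA damage and repair, 10 were called higher and 0 lower in Rag2c/c p53-/- lymphomas (median log2 difference 0.97), beside 9.77% and 13.9% of all tested genes. In Atm-/- lymphomas 1 was called higher and 1 lower (median 0.31), beside 12.6% and 17.0% of all tested genes. Rpa2, a subunit of the single-strand DNA binding protein RPA, was 2955, 3759, 2771, 3615 and 3247 in Rag2c/c p53-/- lymphomas 1 to 5, 2404, 2393, 3293, 3102 and 2591 in Atm-/- lymphomas and 1459, 1436 and 1386 in WT thymuses. The difference was 1.19 ± 0.15 in Rag2c/c p53-/- lymphomas (adjusted p = 8.97e-05) and 0.94 ± 0.15 in Atm-/- lymphomas, which is past the adjusted p but under the fold threshold. Rad54l, a motor of homologous recombination, was at 1412 to 2309 in Rag2c/c p53-/- lymphomas, 948 to 1657 in Atm-/- lymphomas and 656 to 794 in WT thymuses (1.31 ± 0.19, adjusted p = 0.000256 for Rag2c/c p53-/-). Mad2l2, the REV7 subunit of shieldin and of polymerase zeta, was called in both, at 1061 to 1905 and 921 to 1508 against 383 to 398. Trp53inp1, a target of p53, was the member that fell in Atm-/- lymphomas, at 4090, 6369, 5419, 3369 and 3800 against 14305, 16915 and 14149 in WT thymuses (-1.75 ± 0.24, adjusted p = 0.000113). In Rag2c/c p53-/- lymphomas, which lack p53, it was 11891, 5998, 9219, 6364 and 7799, and the difference of -0.91 ± 0.24 did not reach the fold threshold.

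Of 23 metabolic members, 9 were called higher and 0 lower in Rag2c/c p53-/- lymphomas (median 0.92), against 2 and 2 in Atm-/- lymphomas (median 0.59). Beside each count of this paragraph stand the shares over all tested genes. These were 9.77% higher and 13.9% lower in Rag2c/c p53-/- lymphomas, and 12.6% and 17.0% in Atm-/- lymphomas. The metabolic calls in Atm-/- lymphomas did not exceed these shares. Srm, spermidine synthase, was 4087, 8322, 4645, 6944 and 5911 in Rag2c/c p53-/- lymphomas 1 to 5, 4053 to 7228 in Atm-/- lymphomas and 1577, 1861 and 1568 in WT thymuses, with differences of 1.80 ± 0.24 and 1.67 ± 0.24 (adjusted p = 0.000128 and 0.000135). Mtap, which salvages methionine from polyamine synthesis, was at 2629 to 3973 in Rag2c/c p53-/- lymphomas, 1709 to 2604 in Atm-/- lymphomas and 1192 to 1327 in WT thymuses. All 3 groups were separate for Mtap, and the difference between the lymphoma groups was -0.59 ± 0.15 (adjusted p = 0.0201). Rragd, a Rag GTPase of the mTORC1 pathway, was lower in Atm-/- lymphomas, at 82 to 183 against 203 to 802 in Rag2c/c p53-/- lymphomas and 773 to 845 in WT thymuses. Of 20 members of RNA processing and translation, 5 were called higher and 1 lower in Rag2c/c p53-/- lymphomas (median 0.42), and 3 higher and 1 lower in Atm-/- lymphomas (median 0.14). Pabpc4, a poly(A)-binding protein, was at 5489 to 8497 and 6454 to 9467 in the lymphoma groups and at 2790 to 3515 in WT thymuses (1.22 ± 0.17 and 1.40 ± 0.17). Of 9 cell death members 1 rose and 1 fell in Rag2c/c p53-/- lymphomas, and 1 fell in Atm-/- lymphomas. The gene that fell in both was Pink1, a mitochondrial kinase of mitophagy, at 741 to 1515 and 864 to 1384 against 2489 to 3580 (-1.34 ± 0.23 and -1.31 ± 0.23).

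Genes of lymphocyte surface and signalling moved in both directions. Of 25 members, 4 were called higher and 4 lower in Rag2c/c p53-/- lymphomas (median 0.03), and 2 higher and 4 lower in Atm-/- lymphomas (median -0.43). The lower calls were close to the share over all tested genes, which was 13.9% and 17.0%. For higher calls that share was 9.77% and 12.6%. Cd52, a GPI-anchored glycoprotein of lymphocytes, was 586, 2178, 1250, 974 and 1011 in Rag2c/c p53-/- lymphomas 1 to 5, 749, 585, 892, 374 and 976 in Atm-/- lymphomas and 3858, 6153 and 3809 in WT thymuses (-2.03 ± 0.38 and -2.73 ± 0.38). Shb, an adaptor of the T cell receptor, was higher in both, at 221 to 768 and 107 to 408 against 43 to 54. Rcan3, an inhibitor of calcineurin, was lower in Atm-/- than in Rag2c/c p53-/- lymphomas (110 to 268 and 320 to 671, -1.32 ± 0.26, adjusted p = 0.00549) and at 897 to 1055 in WT thymuses. Pik3r3, a regulatory subunit of PI3 kinase, was at 98 to 844 in Atm-/- and 1236 to 2377 in Rag2c/c p53-/- lymphomas (-2.40 ± 0.48, adjusted p = 0.00624), and WT thymuses lay at 393 to 530.

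Most TNF receptor and ligand genes were lower in both lymphoma groups. Of 8 members, 5 were called lower and 1 higher in Rag2c/c p53-/- lymphomas, and 6 lower and 0 higher in Atm-/- lymphomas, with medians of -1.68 and -1.67. Over all tested genes 13.9% were called lower and 9.77% higher in Rag2c/c p53-/- lymphomas, and 17.0% and 12.6% in Atm-/- lymphomas. Among the 979 members 7.87% and 14.6% were called lower in these groups. Tnfrsf4 (OX40), a costimulatory receptor of activated T cells, was 176, 176, 169, 99 and 128 in Rag2c/c p53-/- lymphomas 1 to 5, 54, 73, 96, 45 and 85 in Atm-/- lymphomas and 473, 536 and 496 in WT thymuses. The 3 groups did not overlap, and the differences from WT thymus were -1.77 ± 0.31 and -2.86 ± 0.31 (adjusted p = 0.000748 and 1.71e-05). Tnfrsf18 (GITR), a receptor of regulatory T cells, was at 202 to 588 and 208 to 338 against 783 to 978, and Tnfrsf9 (4-1BB) at 21 to 117 and 14 to 208 against 536 to 652. Tnfrsf8 (CD30) went the other way in Rag2c/c p53-/- lymphomas, at 4482, 1310, 831, 3208 and 3653 against 400, 471 and 440 (2.36 ± 0.70, adjusted p = 0.0177). That call was lost without WT thymus 1 (adjusted p = 0.0602) or WT thymus 3 (adjusted p = 0.0551). Tnfrsf4, Tnfrsf18, Tnfrsf14, Tnfrsf9, Tnfrsf25, Tnfrsf1b and Tnfrsf8 all lie from position 145213463 on. There the window means of Rag2c/c p53-/- lymphomas were above those of Atm-/- lymphomas, although single lymphomas of the groups overlapped in some of these windows.

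Of 31 members of lymphoid transcription and chromatin, 0 were called higher in either lymphoma group and 5 were called lower in Rag2c/c p53-/- lymphomas and 6 in Atm-/- lymphomas, with medians of -0.22 and -0.42. These lower calls were also close to the share over all tested genes (13.9% and 17.0%). Bach2, a repressor that restrains effector differentiation of lymphocytes, was 52, 30, 101, 49 and 35 in Rag2c/c p53-/- lymphomas 1 to 5, 99, 57, 22, 56 and 74 in Atm-/- lymphomas and 1805, 1566 and 1958 in WT thymuses. Its differences were -5.16 ± 0.46 and -4.97 ± 0.46 (adjusted p = 1.02e-05 and 6.16e-06), and the lymphoma groups did not differ by the test (0.18 ± 0.40, adjusted p = 0.824). Nr4a3, an orphan nuclear receptor induced by antigen receptor signals, was 114, 10, 214, 129 and 40, and 25, 43, 36, 15 and 31, against 1146, 1345 and 1400 (-4.25 ± 0.75 and -5.46 ± 0.75). Mllt3, a subunit of elongation complexes, was at 706 to 946 in Atm-/- lymphomas, below the 973 to 2432 of Rag2c/c p53-/- lymphomas and the 1950 to 2040 of WT thymuses. Of 4 Notch pathway members, only 1 had an estimate above 0 in either group, and the medians were -0.17 in Rag2c/c p53-/- and -0.61 in Atm-/- lymphomas. Hes5 was called lower in Rag2c/c p53-/- lymphomas, beside 13.9% of all tested genes. That call was lost without WT thymus 1, 2 or 3 (adjusted p = 0.069, 0.0941 and 0.0767). Heyl, a target of Notch, was the 1 called higher in both, beside 9.77% and 12.6% of all tested genes. It stood at 534, 159, 799, 449 and 303 in Rag2c/c p53-/- lymphomas, 1885, 2519, 150, 2070 and 447 in Atm-/- lymphomas and 37, 16 and 26 in WT thymuses (3.92 ± 0.81 and 5.15 ± 0.81, adjusted p = 0.00238 and 0.00028).

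Genes of other cell types were read beside these results. Beside each count of this paragraph stand the shares over all tested genes. These were 9.77% higher and 13.9% lower in Rag2c/c p53-/- lymphomas, and 12.6% and 17.0% in Atm-/- lymphomas. Of 8 macrophage and granulocyte genes on chromosome 4, 1 was called higher in Rag2c/c p53-/- lymphomas and 2 were called higher and 1 lower in Atm-/- lymphomas. C1qb, a complement subunit made by macrophages, was at 1165 to 2375 and 1305 to 3356 against 510 to 682. Its call in Rag2c/c p53-/- lymphomas was lost without lymphoma 4 of that group (log2 difference 0.99). The 5 myeloid markers on other chromosomes summed to 4056 to 7955 in Rag2c/c p53-/- lymphomas, 6773 to 10799 in Atm-/- lymphomas and 3454 to 3712 in WT thymuses. The B cell markers Cd79a, Cd79b and Ms4a1 were called lower in both lymphoma groups. Of the 2 B cell genes on chromosome 4, Pax5 was at 0 to 47 in Rag2c/c p53-/- lymphomas, 2 to 30 in Atm-/- lymphomas and 54 to 69 in WT thymuses. The other gene was not called in either group, and its estimate was above 0 in Rag2c/c p53-/- lymphomas. Together these 2 genes summed to 117 to 652, 79 to 130 and 234 to 298 in the same order of groups. The Pax5 call in Rag2c/c p53-/- lymphomas was lost without WT thymus 1, 2 or 3 (adjusted p = 0.0502, 0.0524 and 0.0614). The B cell markers summed to 1415 to 22445, 2431 to 27550 and 10314 to 14186 in Rag2c/c p53-/- lymphomas, Atm-/- lymphomas and WT thymuses, most of it Ighm. Of 6 thymic epithelium markers 4 were called lower in Rag2c/c p53-/- and 3 in Atm-/- lymphomas, and Psmb11 was at 36 to 122 in WT thymuses and at 0 or 1 in every lymphoma. The other 2, Epcam and Ccl25, were not called in Rag2c/c p53-/- lymphomas, and their estimates there were above 0. Epcam was 22, 875, 540, 172 and 750 in these lymphomas against 221 to 283 in WT thymuses, and Ccl25 was at 227 to 429 against 260 to 296. The summed level of the 6 markers was 287 to 1320, 189 to 609 and 725 to 1058 in Rag2c/c p53-/- lymphomas, Atm-/- lymphomas and WT thymuses. Fibroblast and endothelium markers summed to 3697 to 8150, 6368 to 15483 and 3951 to 4045 in Rag2c/c p53-/- lymphomas, Atm-/- lymphomas and WT thymuses, and erythroid markers to 794 to 4289, 876 to 6144 and 933 to 2128. Most of the WT sum of the fibroblast and endothelium markers was Pecam1, at 3529 to 3660. Of these 6 markers, Col1a1, Col3a1 and Pdgfrb were called higher in both lymphoma groups. Sparc was called higher in Atm-/- lymphomas, and Cdh5 lower in Rag2c/c p53-/- lymphomas. Col1a1 was at 128 to 631, 422 to 5791 and 36 to 52 in the same order of groups. Of 11 chromosome 4 genes of thymic epithelium and stroma, 2 were called higher and 1 lower in Rag2c/c p53-/- lymphomas and 2 higher and 2 lower in Atm-/- lymphomas. The part of these cell types in the differences from WT thymus was not tested.

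The genes with the largest differences from WT thymus are given with both lymphoma groups side by side. Kank4, a cytoskeletal adaptor, was listed at 0 in all 3 WT thymuses and reached 8038, 155, 320, 32 and 1469 in Rag2c/c p53-/- lymphomas 1 to 5 and 3284, 416, 1010, 2 and 3454 in Atm-/- lymphomas (adjusted p = 0.00494 and 0.00415). Within each group its level differed widely between tumors, and the lowest Atm-/- lymphoma was near the WT value. Trnp1, a nuclear protein, was 2657, 280, 740, 1558 and 175, and 960, 349, 436, 1245 and 507, against 2, 0 and 4 (8.12 ± 0.81 and 7.98 ± 0.81). Zfp618, a zinc finger protein, was 938, 642, 1039, 722 and 1360, and 766, 155, 571, 164 and 1252, against 10, 3 and 12 (6.77 ± 0.64 and 5.68 ± 0.64). Elavl4, an RNA-binding protein best known from neurons, was at 16 to 5353 in Atm-/- lymphomas and 0 to 2 in WT thymuses (7.59 ± 1.55, adjusted p = 0.00168). It was also called higher in Rag2c/c p53-/- lymphomas, a call lost without WT thymus 1, 2 or 3 (adjusted p = 0.0585, 0.0951 and 0.0742). The lincRNAs 1700080G11Rik and 4930471C06Rik, within 60 kb of each other, were seen in all 5 Rag2c/c p53-/- lymphomas (82 to 467 and 21 to 261), in Atm-/- lymphomas 1, 3 and 5, and at 0 or 1 in Atm-/- lymphomas 2 and 4 and in WT thymuses.

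Among the genes with the largest falls, Epb4.1l4b, a FERM domain protein, was 1, 0, 33, 41 and 12 in Rag2c/c p53-/- lymphomas 1 to 5, 3, 0, 3, 4 and 8 in Atm-/- lymphomas and 456, 328 and 428 in WT thymuses (-5.61 ± 1.11 and -6.75 ± 1.11). Hook1, which links cargo to microtubules, was at 2 to 48 in Atm-/- lymphomas against 910 to 1243 (-6.62 ± 1.20, adjusted p = 0.000753). It was also called lower in Rag2c/c p53-/- lymphomas, a call lost without WT thymus 1 or 3 (adjusted p = 0.0533 and 0.0539). BB031773, annotated as an antisense gene that overlaps another gene, was 147, 44, 88, 18 and 101, and 2, 14, 3, 2 and 7, against 1793, 1403 and 1672 (-4.64 ± 0.67 and -8.24 ± 0.67), and its 3 groups were separate. Whether strand was used in counting is not given in the sources used here, so reads of an antisense gene and of its partner cannot be told apart.

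**Figure D5:**
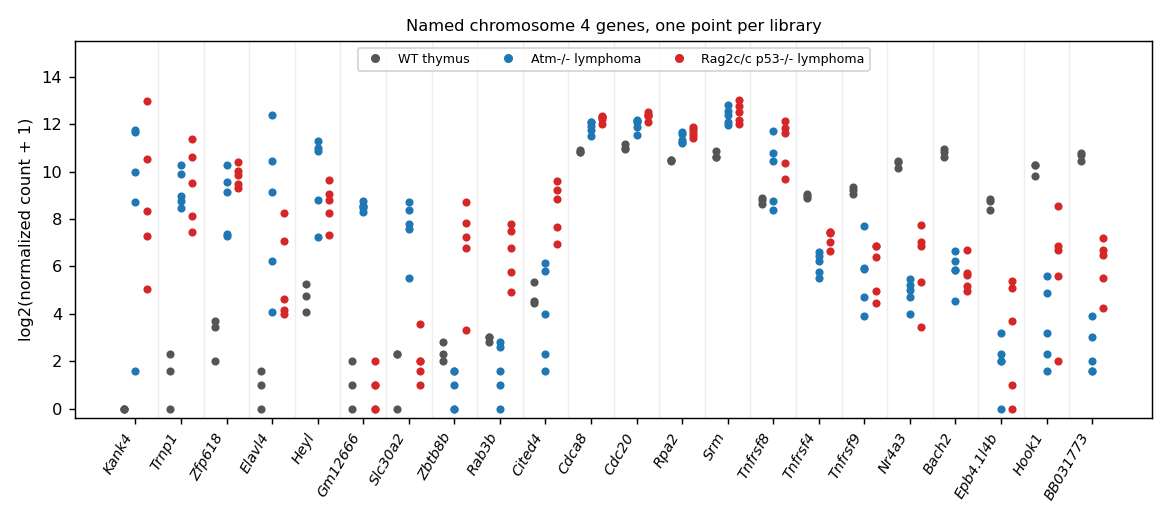
Normalized counts of 22 named chromosome 4 genes on the log2(value + 1) scale, with one point per library. Trnp1 and Zfp618 are high in lymphomas of both genotypes, Kank4 in most of them (down to 2 in an Atm-/- lymphoma), Gm12666 and Slc30a2 in Atm-/- lymphomas, and Zbtb8b, Rab3b and Cited4 in Rag2c/c p53-/- lymphomas, while Nr4a3, Bach2 and BB031773 are low in all lymphomas. Gm12666, Zbtb8b and Rab3b passed the selection only through the group where they are high.

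Some genes separated the lymphoma groups from each other by far more than the shift of the chromosome. Of these, Zbtb8b and Rab3b were members only through the Rag2c/c p53-/- lymphomas, where they were high. Their p-values draw on values that the selection used and do not count as support. Zbtb8b, a BTB zinc finger protein, was 9, 226, 108, 419 and 152 in Rag2c/c p53-/- lymphomas 1 to 5, 0, 2, 0, 2 and 1 in Atm-/- lymphomas and 6, 3 and 4 in WT thymuses (-5.94 ± 0.82 for Atm-/- against Rag2c/c p53-/-, adjusted p = 0.000473). Rab3b, a GTPase of vesicle release, was 110, 223, 29, 177 and 54, and 1, 5, 6, 0 and 2, against 7, 6 and 7 (-4.96 ± 0.64, adjusted p = 0.000283). Cited4, a coactivator that binds CBP and p300, was 124, 199, 779, 460 and 591, and 4, 55, 70, 2 and 15, against 22, 39 and 21 (-4.48 ± 0.83, adjusted p = 0.00395). The antisense gene Gm12454 was at 31 to 111 in Rag2c/c p53-/- lymphomas and 69 to 79 in WT thymuses, and at 0 or 1 in Atm-/- lymphomas (-5.74 ± 0.40).

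In the other direction, Gm12666 was 312, 438, 369, 378 and 356 in Atm-/- lymphomas 1 to 5, 1, 0, 1, 3 and 0 in Rag2c/c p53-/- lymphomas and 0, 3 and 1 in WT thymuses (7.73 ± 0.47, adjusted p = 6.13e-07). Gm12666 was a member only through the Atm-/- lymphomas, where it was high, so its p-value does not count as support either. Slc30a2, a zinc transporter, was 424, 190, 223, 45 and 333, against 1 to 11 and 0 to 4 (5.57 ± 0.69, adjusted p = 0.000194). The next genes in that order, Gm13092, Mrpl48-ps and Gm11841, are processed pseudogenes, and the counts of such copies are uncertain. Gm13092 was at 221 to 306 in Atm-/- lymphomas, 9 to 54 in Rag2c/c p53-/- lymphomas and 9 to 19 in WT thymuses. The Atm-/- lymphomas are the 129S6/SvEv samples, so strain and genotype cannot be told apart for any of these genes.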

How the data were processed

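RNA of single-cell suspensions was sequenced as stranded poly(A) libraries. Per the labels and the submitters' processing notes, bcl2fastq 1.8.3, STAR 2.4.0g1, Picard, DESeq2 1.6.3 and GRCm38/mm10 were used, and the counter and its strand setting are not given in the sources used here. The deposited values are normalized counts that the authors rounded to whole numbers, a score on a common scale and not raw counts, so count tests were not run. The authors' columns of fold changes and p-values were not used. limma 3.58.1 (R 4.3.3, trend and robust moderation) was fitted to log2(value + 1) of all 15872 genes that reached 10 in 3 or more of the 13 libraries, in 3 groups, with Benjamini-Hochberg adjustment. The fit was tested on simulated data. Windows held 50 genes and moved by 10. Genes were named from role lists, from the 5 highest and 5 lowest differences among called genes with separate groups in each comparison, and from the window with the largest shift. A few genes that the rule or a list names are not reported here. Members and lists were chosen with earlier results of these data known. Alternatives covered scaling, pseudocount, filter, groups in the fit, moderation, fold threshold, window size and each library left out.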

Additional observations from a re-analysis of the deposited data

Results flagged for a closer look

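In groups of 5, a library was singled out when its gap to the nearest other library exceeded 0.71 of the range of the group, which chance gives for about 1 in 20 groups. Of 148 sets of 5 values, 7 passed. Atm-/- lymphoma 3 stood apart from the other Atm-/- lymphomas in the relative level of chromosome 4, at 0.152 against 0.018 to 0.044, and in the share of all normalized counts, at 5.94% against 5.56% to 5.63%. Its relative level was still below that of every Rag2c/c p53-/- lymphoma. Rag2c/c p53-/- lymphoma 1 was low in Fgr, a Src family kinase, at 489 against 1489 to 1842 in the other 4. Atm-/- lymphoma 2 was low in the mitotic kinase Melk, at 422 against 983 to 1095. Rag2c/c p53-/- lymphoma 4 was high in C1qb, at 2375 against 1165 to 1349, and Rag2c/c p53-/- lymphoma 2 was high in Sfn, at 990 against 541 to 606. Gm12454 was at 1 in Atm-/- lymphoma 1 and at 0 in the other 4, which is a difference of a rounded unit.

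For 10 named genes the estimates against WT thymus had opposite signs in the lymphoma groups and the difference between the lymphoma groups itself was called by limma. Log2 differences for Atm-/- against Rag2c/c p53-/- lymphomas were 7.73 for Gm12666 and 3.12 for Mrpl48-ps. They were -5.94 for Zbtb8b, -4.96 for Rab3b, -4.48 for Cited4 and -3.80 for Zbtb8a. They were -2.40 for Pik3r3, -2.06 for Prkcz, -1.30 for Hmgn2 and -1.27 for Sfn, a cell cycle inhibitor of the 14-3-3 family. Of the estimates against WT thymus, those with called differences were Gm12666, Mrpl48-ps, Zbtb8a and Sfn in Atm-/- lymphomas and Zbtb8b, Rab3b, Cited4 and Pik3r3 in Rag2c/c p53-/- lymphomas. Gm12666, Zbtb8b and Rab3b were members only through the group where they were high, so their calls do not count as support. The Zbtb8a call in Atm-/- lymphomas was lost without WT thymus 1, 2 or 3 (adjusted p = 0.0637, 0.056 and 0.0694), with only these groups in the fit (0.0574) and without both libraries that held no value of 1 or 2 (0.062). The Pik3r3 call in Rag2c/c p53-/- lymphomas was lost without WT thymus 1 or 2 (adjusted p = 0.0514 and 0.059).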

How the results depend on the processing

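The relative level in Rag2c/c p53-/- lymphomas was 0.36 to 0.43 under all alternatives run, and leaving out 1 library gave 0.363 to 0.419. In Atm-/- lymphomas leaving out 1 library gave 0.035 to 0.069, the lowest without Atm-/- lymphoma 3, and centring on GC content, added after seeing the data, gave -0.00896. Directly between the lymphoma groups, leaving out 1 library gave 0.330 to 0.395. With windows of 25 genes the highest and lowest group means were 1.01 and -0.64 in Rag2c/c p53-/- lymphomas and 0.74 and -0.64 in Atm-/- lymphomas. With a mean of at least 100, 155 members were called in Atm-/- lymphomas against WT thymus and 46 between the lymphoma groups, where fewer genes were tested. Without the fold threshold 434, 409 and 216 members were called for Atm-/- against WT, Rag2c/c p53-/- against WT and Atm-/- against Rag2c/c p53-/-. With only the lymphoma groups in the fit 59 were called between them (10 higher, 49 lower), and the cause was not tested. Leaving out 1 library gave 209 to 274, 205 to 272 and 69 to 100 calls. Lower calls in Rag2c/c p53-/- lymphomas fell from 77 to 46 without WT thymus 1 or WT thymus 3, and higher calls between the lymphoma groups fell from 20 to 13 without Atm-/- lymphoma 1 or Rag2c/c p53-/- lymphoma 1, to 12 without Atm-/- lymphoma 4 and to 11 without Rag2c/c p53-/- lymphoma 5. Without both libraries that held no value of 1 or 2, an alternative added after seeing the data, the calls were 260, 208 and 85, with 157 higher and 51 lower in Rag2c/c p53-/- lymphomas. Of 114 calls of 72 named genes, 88 held under every alternative, 26 were lost under at least 1 and 0 changed direction. The lost calls include Zbtb8a, Tnfrsf14, Tnfrsf25, Pik3cd and Ybx1 in Atm-/- lymphomas, Stmn1, Pik3r3, Elavl4, Hook1, Plag1, Rere, Hes5, Mutyh, Park7, Slc2a1 and Epha2 in Rag2c/c p53-/- lymphomas, and Zbtb8a, Tnfrsf4, Tnfsf8, Plag1 and Epha2 between the lymphoma groups. No paired analysis was possible because tumors and thymuses share no replicate number in the labels. Depth per library is not known from these rounded values, so genes near 0 are the least certain.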
